A study of Danio rerio with 2 samples.

Results

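The genes described here encode the proteins of the cytosolic ribosome. They were taken from the deposited gene list as every symbol that begins with *rpl* or *rps* followed by a digit, without the *rps6k* kinases, which gave 79 gene identifiers and 78 symbols (*rpl37* has 2 identifiers) of 32057 genes. Of these, 44 carry the large-subunit prefix and 35 the small-subunit prefix. Their UMIs were counted in 2 droplet single-cell RNA-seq libraries from whole brains of 3-dpf zebrafish larvae, dissociated with papain. A UMI (unique molecular identifier) marks 1 captured mRNA molecule. The first library came from siblings with the genotype wt, and the second from rb1 mutants, homozygous for the smu2 allele (rb1smu2/smu2). *rb1* encodes the retinoblastoma protein, which restrains entry into the cell cycle. Brains were collected by genotype, in a number that is not given in the sources used here. With 1 library per genotype and none repeated, no test was possible. Intervals are exact 95% intervals for counting error only, and a difference between the genotypes cannot be told apart from a difference between the libraries.

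The ribosome is built of a large subunit, which joins amino acids, and a small subunit, which reads the mRNA. Each holds ribosomal RNA and a set of proteins that are, with few exceptions, present once per ribosome. The mRNAs of these proteins share a terminal oligopyrimidine tract at the 5′ end, through which their translation responds to mTOR signalling, and growing progenitor cells are known for high ribosome production. Zebrafish keep some of these genes as pairs of paralogs. The number of a symbol does not by itself mark paralogs, since *rpl7* and *rpl7a*, for example, encode unrelated proteins. For 2 of the 79 genes the product is not a ribosomal subunit protein: human RPS19BP1 binds RPS19, and human RPL7L1 acts in large-subunit assembly.

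After filtering, 7539 sibling and 7873 mutant cells were retained, with 28869101 and 31887164 UMIs and medians of 3313 and 3598 UMIs per cell. The libraries shared 16 barcode sequences. Cells were placed in classes by 16 lists of marker genes, a gate that needed a UMI of at least 3 markers of a list, and 6212 sibling and 6392 mutant cells were gated. Of these, 1042 and 1253 cells had exactly 3 markers, so that a class is a range of cells and not a sharp type. Cells with 3 markers of 2 or more lists numbered 2745 and 2992. The labels give neuron as the cell type, but 790 sibling and 713 mutant cells were gated as mesenchyme, and 270 and 262 as cartilage. *rb1* itself had 173 UMIs (5.99 CPM, counts scaled to a total of 1000000 UMIs) in siblings and 172 (5.39 CPM) in mutants. In cells gated as cycling progenitors it had 46 UMIs (11.7 CPM) in siblings and 28 (4.38 CPM) in mutants. A 3′ tag need not be affected by the mutation, so these counts do not check the genotype.

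All 79 genes had UMIs in both libraries, and together they made up 25.4% of all UMIs in sibling cells and 28.0% in mutant cells. In both libraries 68 of them were over 1000 CPM and 73 were detected in most cells. Among the 100 most abundant genes, 57 in siblings and 58 in mutants were members. The highest was *rps20*, a protein of the small subunit, with 7069 CPM in siblings and 7672 CPM in mutants. It was followed in the sibling library by *rpl19*, which takes part in a bridge between the subunits, with 6066 and 6212 CPM. *rps12*, of the small subunit, had 5945 and 6489 CPM. *rpl39*, which lines the exit tunnel of the nascent chain, had 5634 and 6743 CPM, and *rpl23*, of the large subunit, had 5393 and 5910 CPM. All 5 were higher in the mutant library, *rpl19* by the least.

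Few members were low. *rps27l*, *rpl7l1*, *rps19bp1*, the second *rpl37* identifier (ENSDARG00000076360) and *rps8b* were under 100 CPM in both libraries. *rps8b* had 22 UMIs in siblings and 18 in mutants against 124393 and 146059 of its paralog *rps8a*, and it was the 1 member under 100 UMIs over both libraries. The second *rpl37* identifier had 295 and 369 UMIs, against 132365 and 186269 of the first (ENSDARG00000034291). The authors counted uniquely mapped reads, so UMIs of near-identical copies may be missing or misplaced, and the level of a paralog is uncertain to that extent. Levels were not divided by transcript length because a 3′ UMI counts molecules.

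The share of UMIs from these genes differed widely between the 12 classes with at least 50 cells in both libraries. Among these, it was highest in the sibling library in cartilage (33.2%), which was gated by matrix genes such as *matn1*, and in mesenchyme (33.1%), followed by cycling progenitors (30.7%, 469 cells). Photoreceptors had 30.0%, retinal amacrine cells 29.3% and newborn neurons with neurogenic precursors 28.6%. Mature neurons, the largest class with 2730 cells, had 17.1%. Retinal bipolar cells had 12.8% and red blood cells 11.6%, the lowest of the 12. The highest class was 2.87 times the lowest. The widest counting interval of a class was 0.380 percentage points, for sibling retinal ganglion cells. In red blood cells, haemoglobin and the other markers of the list summed to 511236 CPM in siblings and 342755 CPM in mutants, which leaves less of the total for any other gene.

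**Figure D1:**
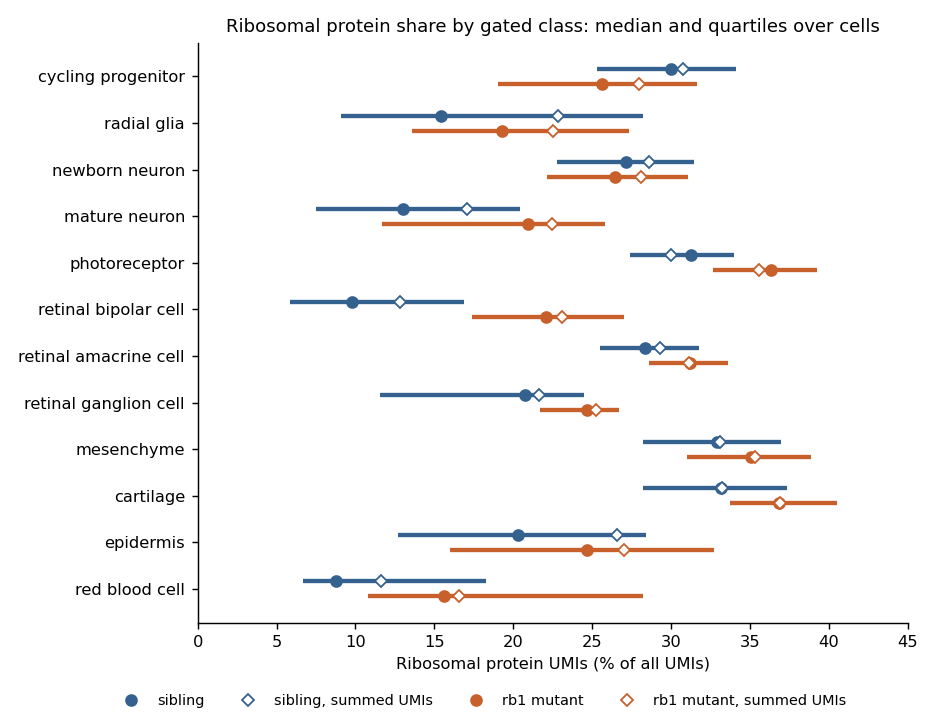
Ribosomal protein share of all UMIs (x axis, %) in the 12 classes with at least 50 cells in both libraries, with the median over cells (filled circles), the quartiles (bars) and the share of summed UMIs (open diamonds) in the sibling (blue) and *rb1* mutant (orange) library. Mature neurons and bipolar cells lie low in the sibling library, at medians of 13.0% and 9.80%, and cartilage and mesenchyme lie high in both libraries.

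Within a class the cells differed as well. The median over sibling cells was 30.0% in cycling progenitors, with quartiles of 25.3% and 34.1%, and 13.0% in mature neurons, with quartiles of 7.52% and 20.4%. Radial glia had a pooled share of 22.8% and a median over cells of 15.4%, with quartiles of 9.09% and 28.2%. Over all retained cells, Spearman's rho of share and UMIs was 0.646 in the sibling library (7539 cells) and 0.539 in the mutant library (7873 cells), as a description of cells that share a library. Within classes the rho differed, with 0.658 in sibling and 0.614 in mutant mature neurons, -0.116 and 0.0910 in photoreceptors, and -0.309 and -0.0537 in red blood cells. In the cells with 500 to 1000 UMIs the median share was 7.55% and 10.6%, and in those with 8000 to 20000 UMIs it was 31.6% and 33.7%. Mitochondrial UMIs moved the other way, with a sibling median of 4.78% in the shallowest and 1.07% in the deepest cells. Their part in the ribosomal protein share was not tested.

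The share became lower with each further mature neuron marker. To read markers at equal depth, cells were thinned to 1000 UMIs and shallower cells were left out (1089 sibling and 1062 mutant cells). Sibling cells with 0 mature neuron markers had a share of 30.3% (2845 cells), those with 1 marker 24.8%, with 2 markers 22.0%, with 3 markers 20.0%, with 4 markers 17.8%, with 5 markers 15.4% and with 6 or more 12.6% (627 cells). In the mutant library the same steps gave 31.5%, 27.3%, 24.8%, 24.0%, 22.0%, 19.7% and 16.7%. Both series fall at every step. Of a fixed 1000 UMIs, a larger ribosomal protein share leaves fewer in which markers can be seen. The part of this in the fall was not tested. Each mutant value is above the sibling value of the same marker number.

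Markers of cycling cells gave a different course. The share was 24.3% in sibling cells with 0 of them, reached 32.4% at 2 markers (214 cells), and was 26.6% at 5 markers and 28.0% at 6 or more (52 cells). In the mutant library it was 28.4% at 0, 30.8% at 2 (498 cells) and 22.8% at 6 or more (124 cells).

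Progenitors and neurons were compared as gated here, and for each member the CPM in mature neurons was divided by that in cycling progenitors of the same library. In the sibling library 68 of 78 members with at least 100 UMIs were at least 1.5-fold lower in mature neurons (87.2%), where 19.6% of all 7903 genes tested were. No member was 1.5-fold higher, where 52.4% of all genes were. The median ratio of the members was 0.553 and that of all genes 1.55, and 77 of 78 members were below 1. Of the mutant members 2 of 78 were at least 1.5-fold lower, where 18.5% of 7945 genes were, and 1 was higher, where 42.6% were. The members' median ratio there was 0.807 and that of all genes 1.303, and 75 of 78 were below 1.

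Since the all-gene medians stand 0.67 and 0.38 above 0 on the log2 scale, the counts depend on the scaling. Divided by the all-gene median, 77 members were lower in siblings and 63 in mutants, with 0 higher in either. Where cells with 3 markers of more than 1 list were left out, a choice made after seeing the data, 75 and 48 members were lower. This kept only 105 of 469 sibling and 233 of 998 mutant cycling progenitors. Under these settings the share of all genes called was not counted, so the counts have no background. Mature neurons were shallower than cycling progenitors, with medians of 3034.5 against 7795 UMIs in siblings and of 3004 against 5891 in mutants. In cells of 2000 to 8000 UMIs only, also chosen after seeing the data, the summed ratio was 0.660 in the sibling library, where it was 0.556 over all cells. In the mutant library it was 0.972 there, where it was 0.802 over all cells. Among mutant cells of 2000 to 4000 UMIs the median share was higher in mature neurons, at 23.4% against 18.7% in cycling progenitors (175 cells). Among those of 4000 to 8000 UMIs the medians were 24.1% and 24.3%. In the remaining depth bins of the mutant library mature neurons were lower. The 2 gates also overlapped more in the mutant library. Mature neuron markers summed to 113 CPM in sibling and 594 CPM in mutant cycling progenitors. Cycling markers summed to 47.3 and 358 CPM in mature neurons. The part of depth and of this overlap in these ratios was not tested.

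**Figure D2:**
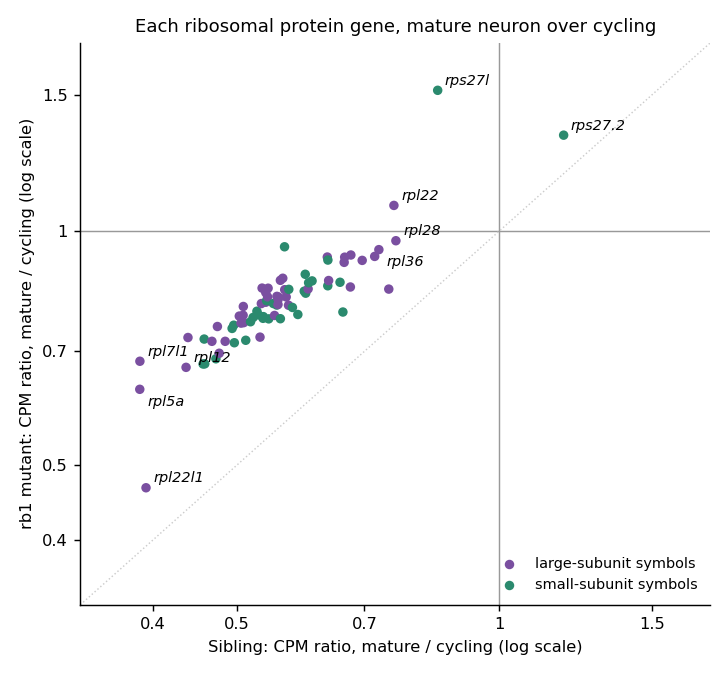
Ratio of CPM in mature neurons to that in cycling progenitors for 78 ribosomal protein genes, in the sibling (x axis, log scale) and the *rb1* mutant library (y axis, log scale), for large-subunit (purple) and small-subunit symbols (green). Nearly all points lie below 1 on both axes and above the dotted line of equal ratios, with *rps27.2* and *rps27l* apart at the top and *rpl22l1* at the bottom.

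The members lowest in mature neurons were led by *rpl5a*, whose product binds 5S ribosomal RNA. It had 1424 CPM in cycling progenitors and 550 CPM in mature neurons of the sibling library, a ratio of 0.386 (0.371 to 0.402). The mutant values were 1178 and 737 CPM, a ratio of 0.626 (0.604 to 0.647). *rpl7l1*, the assembly gene, had 79.1 and 30.6 CPM in the sibling library, a ratio of 0.386 (0.326 to 0.457), and 49.6 and 33.7 CPM in the mutant library. Both genes were lower in mature neurons in both libraries, by less in the mutant.

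*rpl22l1*, a paralog of *rpl22* that encodes an RNA-binding protein of the large subunit, kept most of its difference in the mutant library. It had 1746 CPM in cycling progenitors and 686 CPM in mature neurons of siblings, a ratio of 0.393 (0.379 to 0.407), and 1583 and 739 CPM in mutants, a ratio of 0.467 (0.452 to 0.482). It was the lowest member of the mutant comparison. *rpl12*, at the base of the stalk that binds translation factors, had a sibling ratio of 0.437 (0.428 to 0.446) and a mutant ratio of 0.668. *rpl4*, which lines the exit tunnel, had a sibling ratio of 0.439 (0.415 to 0.464).

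At the other end stood *rps27.2*, among the 78 members compared the only 1 above 1 in the sibling library. It had 651 CPM in cycling progenitors and 773 CPM in mature neurons there, a ratio of 1.19 (1.13 to 1.24), and 670 and 891 CPM in mutants, a ratio of 1.33 (1.28 to 1.38). *rps27l*, whose human counterpart is a p53 target, had 65.9 and 56.0 CPM in siblings, a ratio of 0.850 (0.729 to 0.993), and 42.9 and 65.2 CPM in mutants, a ratio of 1.52 (1.31 to 1.77). This was the 1 mutant member called higher, and the direction turned to 0.498 without upper limits on genes and UMIs, to 0.537 over all deposited barcodes and to 0.883 with cells of 1 marker list only. Of the remaining members near the top, *rpl28* had a sibling ratio of 0.761, *rpl22* 0.757 and *rpl36* 0.727, all of the large subunit. *rpl22* was at 1.08 (1.06 to 1.102) in the mutant library, so that both of its classes there were close to each other.

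The members kept their proportions to each other in most classes. Large-subunit genes gave 52.2% of the members' UMIs in siblings and 52.4% in mutants, and between 51.8% and 53.1% in every one of the 12 classes of either library. Of 71 members with at least 100 UMIs in every class of the sibling library, 62 differed by less than 1.5-fold between their highest and lowest class as a share of the members' UMIs, with a median of 1.29. In the mutant library this held for 63 of 73, with a median of 1.251. The 3 members that differed 2-fold or more were *rpl5a*, *rpl9* and *rps27.2* in both libraries.

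*rpl9* was singled out after its values were seen. Its product lies in the large subunit. It was 1.04% of the members' UMIs over all sibling cells and between 0.986% and 1.13% in 10 of the 12 classes. In photoreceptors it was 0.219% (0.203% to 0.237%, 641 UMIs) and in bipolar cells 0.466% (0.422% to 0.514%, 402 UMIs). The mutant library gave 0.227% (0.213% to 0.241%, 969 UMIs) and 0.472% (0.437% to 0.509%, 657 UMIs) for the same classes, and 0.975% to 1.15% for the others. The low values therefore appeared in both libraries, while amacrine cells, which are also retinal, had 1.00% and 0.986%. *rpl30*, a member of like abundance, did not share them and was 1.14% in photoreceptors of both libraries. With cells of 1 marker list only, the values of *rpl9* were 0.212% and 0.440% in sibling and 0.217% and 0.442% in mutant photoreceptors and bipolar cells. A UMI of *rpl9* was found in 74.1% of sibling photoreceptors, where *rpl30* was found in 99.6%. In level, *rpl9* had 657 CPM in sibling photoreceptors and 2939 CPM in amacrine cells. Whether another 3′ end or a differently annotated transcript is used in these cells was not tested.

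Paralogs shifted against each other between classes. *rpl22l1* made up 40.4% of the UMIs of *rpl22* and *rpl22l1* in sibling cycling progenitors, 39.7% in newborn neurons and 26.0% in mature neurons. The mutant values were 39.3%, 35.9% and 21.9%. Cycling progenitors had the highest and mature neurons the lowest value of the 12 classes in both libraries. The difference of mature from cycling cells was between -16.3 and -11.0 percentage points in siblings and between -20.0 and -13.7 in mutants over the 10 alternatives in which it was recomputed. In 11 of 12 classes the value was lower in the mutant library, photoreceptors included, with 40.1% against 32.6%.

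For the pair of *rpl5a* and *rpl5b*, the *rpl5b* share was lowest in cartilage, at 26.8% in siblings and 28.4% in mutants. It was 35.3% and 38.9% in cycling progenitors and 43.4% and 46.2% in mature neurons. Among the retinal classes, bipolar cells had 48.9% in siblings (43.8% to 53.9%, 397 UMIs of the pair) and 47.4% in mutants. Photoreceptors had 44.1% and 48.0%, amacrine cells 44.5% and 43.1%, and retinal ganglion cells 41.4% and 41.7%. In mutants the last 2 lay below mature neurons, and in siblings the retinal ganglion cells did. The pair of *rps26* and *rps26l* changed little, with *rps26l* at 56.9% and 56.5% over all cells and between 52.0% and 63.3% in the classes.

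Of the UMIs of *rps27.1*, *rps27.2* and *rps27l*, small-subunit proteins with a zinc finger, *rps27.2* gave 18.7% in sibling and 18.4% in mutant mature neurons. It gave 11.4% and 11.9% in cycling progenitors and 7.63% and 7.78% in photoreceptors, the lowest class in both. *rps27l* gave 4.68% and 4.804% in radial glia, the highest class in siblings, and 0.211% and 0.306% in photoreceptors. In level, *rps27l* had 208 CPM in sibling and 204 CPM in mutant radial glia, 181 and 147 CPM in mesenchyme, and 15.4 and 26.6 CPM in photoreceptors. In bipolar cells it had 21 UMIs in siblings and 6 in mutants, so that its value there is loose. Its highest class in the mutant library was red blood cells, with 212 CPM, where siblings had 89.2 CPM from 36 UMIs.

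**Figure D3:**
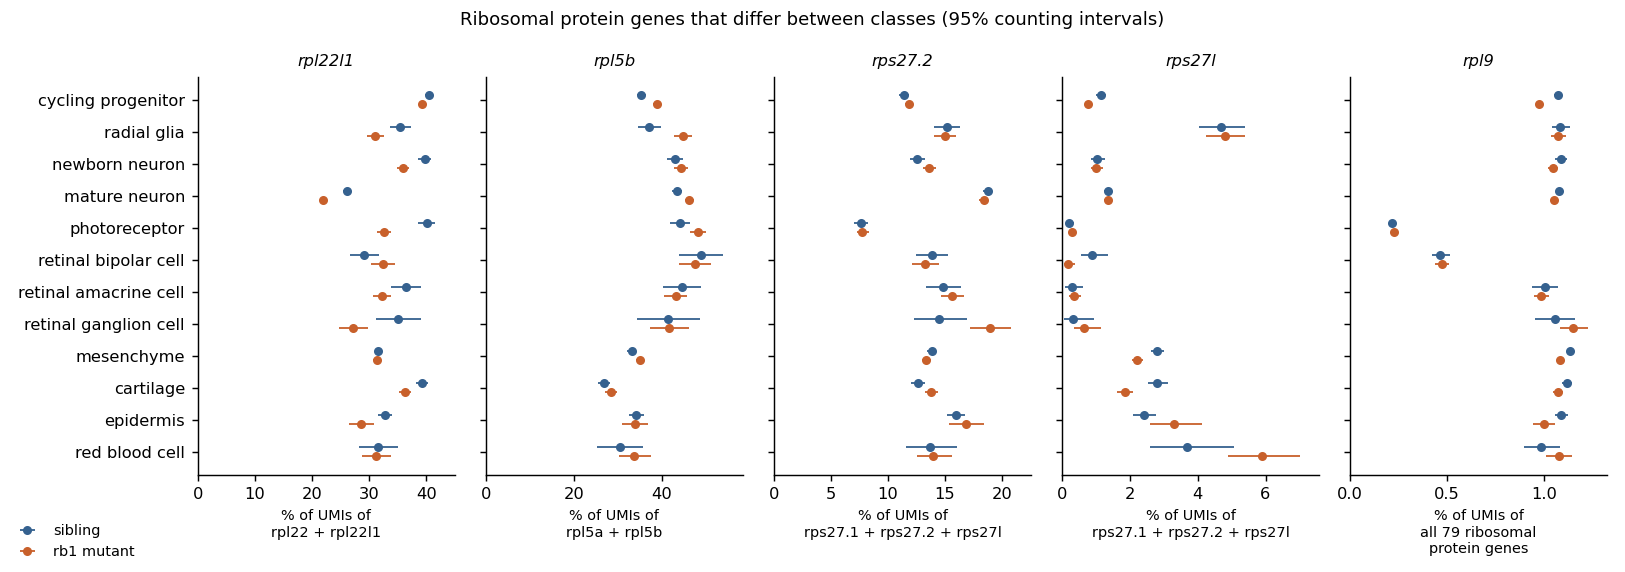
Share of each gene (x axes, %) among the UMIs of its paralogs, or of all 79 ribosomal protein genes for *rpl9*, in 12 classes of the sibling (blue) and *rb1* mutant (orange) library, with 95% counting intervals. The *rpl22l1* share is lowest in mature neurons, *rps27.2* and *rpl9* are lowest in photoreceptors, and *rps27l* is high in radial glia and in non-neural classes.

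Between the libraries, the members' summed share over all cells was 1.105 times as high in the mutant (1.104 to 1.106). Of 78 members 4 were at least 25% higher, where 10.1% of all 13589 genes were, and 0 were lower, where 28.7% were. The members' median ratio was 1.09 and that of all genes 0.921, which is -0.12 on the log2 scale, and 74 of 78 members were above 1. Divided by the all-gene median, 12 members were higher and 0 lower, and the share of all genes called at that scaling was not counted.

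The 4 were *rps29*, *rpl29*, *rps21* and the first *rpl37* identifier. *rps29*, of the small subunit, had 4352 CPM in siblings and 5899 CPM in mutants, a ratio of 1.36 (1.35 to 1.37). *rpl29*, of the large subunit, had 1378 and 1836 CPM, a ratio of 1.33 (1.31 to 1.35). *rps21* had 4142 and 5283 CPM, a ratio of 1.28 (1.27 to 1.28), and *rpl37* had 4585 and 5842 CPM, a ratio of 1.27 (1.27 to 1.28). *rps28*, with 2856 and 3563 CPM and a ratio of 1.247 (1.236 to 1.259), lay just under the limit. Transcript length was not analysed here.

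The lowest members were *rps27l*, with 99.4 and 85.4 CPM and a ratio of 0.859 (0.815 to 0.906), and *rpl7l1*, with 45.7 and 42.1 CPM and a ratio of 0.922 (0.854 to 0.995). *rps2*, at the mRNA entry of the small subunit, had 4673 and 4610 CPM, a ratio of 0.987. *rps19bp1* was at 0.998 (0.919 to 1.08), and *rpl10a*, of the mobile stalk of the large subunit, at 1.01 (1.01 to 1.02).

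Some members differed in the same direction in every class, and the share of all genes that did so was not counted. *rpl29*, *rpl36*, *rpl37*, *rps21*, *rps28* and *rps29* had a higher CPM in the mutant library in all 12 classes, out of 73 members with at least 100 UMIs over both libraries in every class. As a share of the members' UMIs, 10 members were higher in the mutant library in all 12 classes and 5 were lower in all 12. *rps29* ranged from 1.11 to 1.29 with a median of 1.199, and *rpl29* from 1.12 to 1.37 with a median of 1.21. *rps2* ranged from 0.839 to 0.984 with a median of 0.922. The others higher in every class were *rpl5b*, *rpl35*, *rpl35a*, *rpl36*, *rpl36a*, *rpl37*, *rpl38* and *rpl39*, and the others lower were *rpl10a*, *rpl17*, *rpl19* and *rps19*. The classes of a library were prepared together and are not replicates, so a difference between the preparations would appear in all of them.

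**Figure D4:**
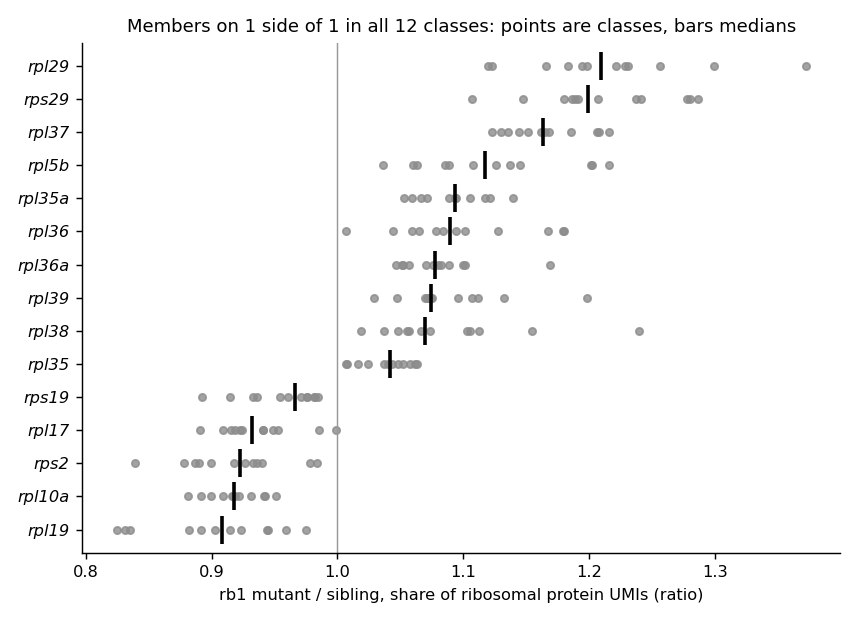
Ratio of the mutant to the sibling library of each gene's share of the ribosomal protein UMIs (x axis), for the 15 genes on the same side of 1 in all 12 classes; points are classes and black bars medians. *rpl29* and *rps29* lie farthest above 1, with medians of 1.21 and 1.199, and *rps2* has a median of 0.922.

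By class, the summed share was higher in the mutant library in 9 of 12 classes and lower in 3. Of the 9, epidermis was close to 1, at 1.017 (399 sibling and 52 mutant cells), and its direction depended on the processing. Red blood cells were at 1.43, and their own marker list took a smaller part of the mutant UMIs, as given above. Bipolar cells differed most, with 12.8% in siblings (478 cells) and 23.1% in mutants (310 cells), a ratio of 1.80 (1.79 to 1.82). Mature neurons had 17.1% and 22.4%, a ratio of 1.31, photoreceptors 30.0% and 35.5%, a ratio of 1.19, and cartilage 33.2% and 36.9%. Cycling progenitors went the other way, with 30.7% and 28.0%, a ratio of 0.911 (0.909 to 0.913). Newborn neurons had 28.6% and 28.1% and radial glia 22.8% and 22.5%. In radial glia the median over cells was higher in the mutant, at 19.3% against 15.4%, so that their direction depends on the summary.

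In mature neurons 63 of 78 members were at least 25% higher in the mutant library (80.8%), where 10.3% of all 8460 genes were. None was lower, where 31.7% of all genes were, and all 78 were above 1, with a median of 1.29 against 0.897 for all genes. *rpl29* was highest at 1.61 (901 and 1453 CPM), followed by *rps29* at 1.55 (2988 and 4628 CPM). *rpl22l1* was lowest of the 78 at 1.08 (686 and 739 CPM). With 2 as the fold for a call, 0 members were higher. Over all deposited barcodes 32 members were higher. The share of all genes called was not counted under these changes.

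Many sibling mature neurons had very little ribosomal protein RNA. Of the 2730 cells, 1058 (38.8%) were under 10%, against 478 (18.9%) of 2529 mutant cells. These cells were shallow, with medians of 1143.5 and 929 UMIs and 3.51% and 4.41% mitochondrial UMIs. The cells at 10% or more had 3772 and 3354 UMIs and 1.19% and 1.14%, and their pooled shares were 19.8% and 23.7%. Among cells binned by depth, mature neurons of 2000 to 4000 UMIs had medians of 16.2% in siblings (988 cells) and 23.4% in mutants (1045 cells), and those of 4000 to 8000 UMIs 19.6% and 24.1%. Bipolar cells of 1000 to 2000 UMIs had 9.85% (404 cells) and 20.1% (178 cells).

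Markers of epidermis differed between the libraries, in these classes and in others. They were lower in the mutant library in every class but epidermis. Their sums were 277 and 71.7 CPM in cycling progenitors, 267 and 57.3 CPM in newborn neurons, and 287 and 73.0 CPM in radial glia. In cells gated as epidermis the sum was higher in the mutant library. The 8 genes of the list summed to 399 CPM in sibling and 95.5 CPM in mutant mature neurons and to 648 and 114 CPM in bipolar cells, and none of the 8 was at 0 in mature neurons of either library. A UMI of at least 3 of them was present in 169 sibling mature neurons (6.19%) and 2 mutant ones (0.0791%). The red blood cell list summed to 234 and 222 CPM in mature neurons and to 525 and 295 CPM in bipolar cells. Markers of cycling progenitors were higher in the mutant library in each of the 12 classes except radial glia and cartilage. They summed to 908 CPM in sibling and 831 CPM in mutant radial glia, and to 182 and 129 CPM in cartilage. In amacrine cells they summed to 28.6 and 1123 CPM, and in newborn neurons to 1246 and 3076 CPM. The cycling list summed to 47.3 CPM in sibling and 358 CPM in mutant mature neurons, and to 60.8 and 717 CPM in bipolar cells. With cells of 1 marker list only, which left 1687 sibling and 1665 mutant mature neurons, the ratio of mutant to sibling was 1.38. The part of epidermal RNA and of cells with cycling markers in the difference was not tested.

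**Figure D5:**
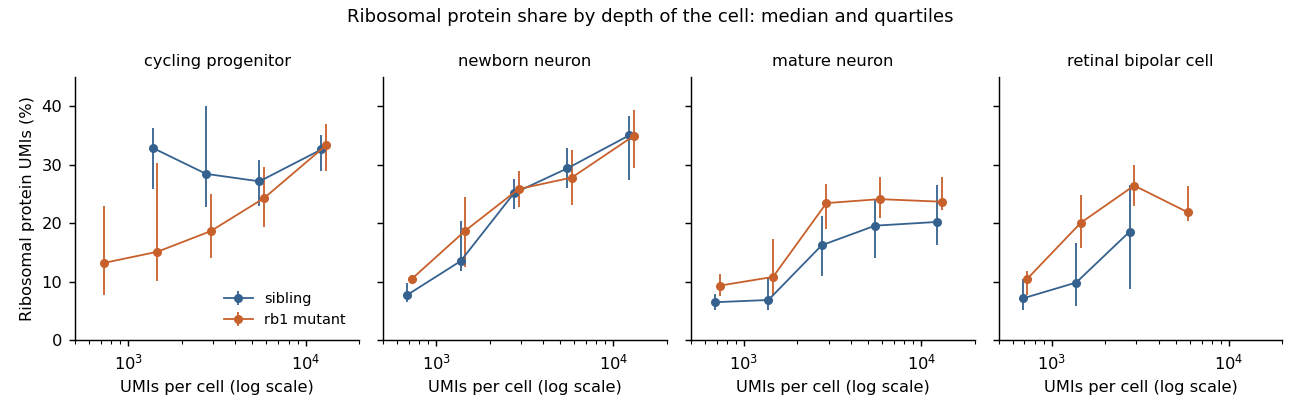
Median ribosomal protein share (y axis, %) with quartiles (bars) in bins of UMIs per cell (x axis, log scale) for 4 classes of the sibling (blue) and *rb1* mutant (orange) library. Mutant mature neurons lie above sibling ones in every bin, while mutant cycling progenitors lie below sibling ones except in the deepest bin, where the medians are 32.6% and 33.3%.

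In cycling progenitors 5 of 78 members were at least 20% lower in the mutant library (6.41%), where 20.4% of all 6039 genes were, and 0 were higher, where 25.9% were. The members' median ratio was 0.894, that of all genes 1.02, and 70 members were below 1. The 5 were *rpl7l1* at 0.628 (79.1 and 49.6 CPM), *rps27l* at 0.651, *rps19bp1* at 0.671, *rpl4* at 0.791 and *rps2* at 0.800, so that 2 of them are the genes that encode no subunit protein. *rps27l* turned to 1.15 without upper limits on genes and UMIs and to 1.097 over all deposited barcodes. *rps29* was highest, at 1.16 (1.14 to 1.18).

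The class itself was made up differently in the libraries. Of the mutant cycling cells 354 of 998 had a UMI of *elavl3*, a gene of early neurons, against 74 of 469 sibling cells. Those with *elavl3* had shares of 28.7% in siblings and 23.7% in mutants, and those without it had 31.1% and 30.5%. The depths differed too, and among cells of 4000 to 8000 UMIs the medians were 27.17% (197 cells) and 24.3% (529 cells), while among those of 8000 to 20000 UMIs they were 32.6% (228 cells) and 33.3% (248 cells). The part of depth and of these cells in the lower mutant share was not tested.

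Other genes of the pathway were counted by list, with the shares over all genes repeated beside the counts. Of 8 ribosomal proteins whose symbols lie outside the pattern, such as the stalk proteins *rplp0*, *rplp1* and *rplp2* and *rpsa*, 7 were at least 1.5-fold lower in mature neurons than in cycling progenitors of siblings and 4 in mutants, with medians of 0.511 and 0.730, where 19.6% and 18.5% of all genes were lower. *rplp1* had 13152 CPM in sibling cycling progenitors and 5921 CPM in mature neurons, more than any of the 79 genes. All 8 were at least 25% higher in mutant than in sibling mature neurons, with a median of 1.35, where 10.3% of all genes were. In cycling progenitors 0 of 8 were called, where 25.9% of all genes were called higher and 20.4% lower.

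Of the ribosome assembly genes, 13 of 14 were at least 1.5-fold lower in mature neurons of siblings, with a median of 0.308, where 19.6% of all genes were lower. *dkc1*, of the box H/ACA complexes that modify ribosomal RNA, had 97.1 CPM in cycling progenitors and 11.6 in mature neurons, and *fbl*, the fibrillarin that methylates it, had 99.9 and 17.2. In mutants 5 of 16 were lower, with a median of 0.786, where 18.5% of all genes were. The comparison of libraries ran in opposite directions in the classes, with 15 of 16 lower in mutant cycling progenitors (median 0.588, against 20.4% of all genes called lower) and 13 of 15 higher in mutant mature neurons (median 1.5, against 10.3% called higher). *fbl* was at 0.500 and 1.72 in those comparisons. Over all cells 0 of 16 were called, where 10.1% of all genes were called higher and 28.7% lower.

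In siblings 6 of 9 translation elongation genes were lower in mature neurons and 1 was higher, with a median of 0.545, where 19.6% of all genes were lower and 52.4% higher. *eef1a1l1*, which encodes elongation factor 1 alpha, had 5923 and 3412 CPM, while *eef1a1a* had 1.53 CPM in cycling progenitors, from 6 UMIs, and 48.3 in mature neurons. In mutants 2 of 9 were lower and 1 was higher, where 18.5% of all genes were lower and 42.6% higher, so that the count of lower genes was near the background. Initiation factors and other mRNAs of the oligopyrimidine kind were lower for 6 of 13 in siblings (median 0.790) and for 1 of 13 in mutants (median 1.04), with 2 and 3 higher. The background shares are those given for elongation genes. The 74 mitochondrial ribosomal proteins, which serve a different ribosome, had medians of 0.997 in siblings and 1.16 in mutants, against 1.55 and 1.303 for all genes, with 4 of 73 and 0 of 73 lower and 3 and 5 higher. In mutant against sibling mature neurons their median was 0.981, with 2 of 74 higher and 2 lower, where 10.3% and 31.7% of all genes were. Of the genes encoded in the mitochondrial genome, 7 of 12 were called higher in sibling mature neurons, with a median of 1.51 against 1.55 for all genes, which is near the background of 52.4%. In mutants 9 of 13 were called higher, with a median of 1.748 against 1.303, where 42.6% of all genes were.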

How the data were processed

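The deposited values are raw counts of UMIs for each gene in each barcode of 10x Chromium 3′ libraries, not normalized. According to the study's methods, Cell Ranger aligned reads to the Ensembl transcriptome, unique exonic reads were counted, and EmptyDrops called cells. The submitters' processing notes name the build GRCz11, Cell Ranger 5.1.0 and Seurat 3.1.1. The study's methods give a different number for the Cell Ranger version. The sparse and dense tables of each library held the same counts.

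Following the study's limits, barcodes were kept if they had 200 to 3000 genes, less than 15% mitochondrial UMIs and fewer than 20000 UMIs in all. The 7.5% with the highest Scrublet score were then removed (scanpy 1.11.5, Python 3.11.15), in place of DoubletFinder. A cell was gated to the list with the largest share of its markers detected, with at least 3 markers, and ties were left out. Member UMIs were summed per class, with Clopper-Pearson intervals for shares and conditional binomial intervals for ratios of CPM. Members were compared when they had at least 100 UMIs over both sides, and called at 1.5-fold between classes and at 25% higher or 20% lower between libraries. Thinning drew 1000 UMIs per cell. The calculation was tested on simulated data.

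Members with 500 UMIs or more in a comparison could be named by rule, which took the 5 highest, the 5 at each end of both comparisons, the 5 with the largest ratio of highest to median class, and all paralog sets. Others are named as the members of a count. The members and lists were chosen with earlier results of these data known. No sequences or coordinates are given, because no genome of the authors' build was used here.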

Additional observations from a re-analysis of the deposited data

Results flagged for a closer look

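In 3 of the 12 classes the ribosomal protein share was lower in the mutant library while it was higher in the other 9. The difference of the mutant from the sibling library was -2.74 percentage points in cycling progenitors, -0.500 in newborn neurons with neurogenic precursors and -0.316 in radial glia. These classes drew attention because their direction was opposite to that of the other classes under the same contrast. The difference between the classes was not tested, since there was 1 library per genotype. In radial glia the median over cells differed by 3.83 points in the other direction, in newborn neurons it differed by -0.686 points, and in cycling progenitors by -4.35 points. In cycling progenitors without a UMI of *elavl3* the pooled difference was -0.675 points, and in those with one it was -5.02 points.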

How the results depend on the processing

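No paired analysis was possible because there was 1 library per genotype, and for the same reason no library could be left out. The 207 values were recomputed under those of 17 alternatives that bear on them, for example 13 for the ratios of shares and 10 for the shares of paralogs. Of the alternatives, 2 were added after seeing the data. These were the depth window of 2000 to 8000 UMIs and the restriction to cells with 3 markers of no more than 1 list. The latter are called cells of 1 list here. Over all cells they include cells that met no list and number 4794 in siblings and 4881 in mutants. The restriction left 105 sibling and 233 mutant cycling progenitors. Of 2522 recomputed values 18 were counted as reversed, 611 as moved and 1893 as the same. A gene ratio that crossed 1 counted as reversed only where it had been called, and otherwise as moved. A ratio of shares counted as reversed only where its counting interval excluded 1. Percentages and counts of members could not be counted as reversed. Values could also move by leaving their counting interval, by a change of call or by a changed count. The cause of each change was not tested. Depth limits the members under 100 CPM, whose counts are small in the smaller classes.

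The share in mature neurons over that in cycling progenitors stayed below 1 in both libraries under the 13 alternatives in which it was recomputed. In the depth bin of 2000 to 4000 UMIs alone, the median over mutant cells was higher in mature neurons (23.4% against 18.7%). For siblings it was 0.556 as reported, 0.570 without upper limits and without doublet removal, 0.566 with at least 500 genes, 0.559 with a mitochondrial limit of 10%, 0.562 with 4 markers for a gate, 0.536 thinned to 1000 UMIs, 0.580 over all deposited barcodes, 0.660 in the depth window, 0.457 in cells of 1 list, 0.560 without mitochondrially encoded UMIs and 0.479 as a mean over cells. For mutants it was 0.802 as reported, 0.769 without upper limits, 0.814 with at least 500 genes, 0.796 with 2 and 0.815 with 4 markers, 0.773 over all barcodes, 0.972 in the depth window, 0.647 in cells of 1 list, 0.807 without mitochondrially encoded UMIs and 0.760 as a mean over cells.

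The share of the mutant over that of the sibling library, over all cells, was 1.079 without upper limits, 1.1009 with at least 500 genes, 1.108 without doublet removal, 1.10034 thinned, 1.083 over all barcodes, 1.1005 in the depth window, 1.161 in cells of 1 list, 1.102 without mitochondrially encoded UMIs and 1.199 as a mean over cells. In mature neurons it was 1.273, 1.288 and 1.257 without upper limits, without doublet removal and over all barcodes, 1.307 with 4 markers, 1.329 thinned, 1.303 in the depth window, 1.378 in cells of 1 list and 1.366 as a mean over cells. In radial glia it turned above 1, to 1.013 without doublet removal, 1.023 with 2 and 1.003 with 4 markers, 1.089 thinned, 1.168 in the depth window, 1.002 in cells of 1 list and 1.098 as a mean over cells. In newborn neurons it turned to 1.021 in cells of 1 list and 1.0004 as a mean over cells. It turned below 1 in epidermis, to 0.995 with at least 500 genes and 0.890 in cells of 1 list (189 sibling and 35 mutant cells). In cells of 1 list it also turned to 0.951 in amacrine cells, from only 16 sibling and 29 mutant cells. In retinal ganglion cells it turned to 0.871, from only 7 and 8 cells. These numbers of mutant cells, and of sibling amacrine and ganglion cells, are under the minimum of 50 used for the classes.

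The number of members lower in mature neurons of the mutant library, 2 as reported, was 10 without upper limits and over all barcodes, 4 with 2 markers and when thinned, 1 in the depth window, 48 in cells of 1 list, 8 in CPM without ribosomal protein and mitochondrial UMIs, 63 against the median of all gene ratios and 1 at 2-fold. The sibling number, 68, was 16 at 2-fold. The number higher in mutants over all cells, 4, was 10 in cells of 1 list, 8 in CPM without ribosomal protein and mitochondrial UMIs, 12 against the median and 0 at 2-fold. In mature neurons it was 63, and 32 over all barcodes and 0 at 2-fold. The share of all genes called was not counted under the alternatives. The ratio of *rps27l* between mature and cycling mutant cells turned to 0.498 without upper limits, 0.537 over all barcodes and 0.883 in cells of 1 list, and its ratio of mutant to sibling cycling progenitors turned to 1.149 without upper limits and 1.097 over all barcodes.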

Other observations

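Classes with fewer than 50 cells in a library were left out of the comparisons. Skeletal muscle cells had shares of 36.6% in the sibling (21 cells) and 36.0% in the mutant library (26 cells), and retinal progenitors, which make new retinal neurons, had 34.1% (9 cells) and 38.1% (11 cells). Endothelium had 28.8% (24 cells) and 30.9% (17 cells). Cells gated as microglia and macrophages had 25.1% (24 cells) and 23.2% (19 cells), although none of the markers of that list was among their 10 leading genes. Cells that met no gate had 25.9% (1327 cells) and 28.4% (1481 cells).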
